A study of Mus musculus with 12 samples.

Results

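The genes that copy DNA and carry a cell from G1 into S phase were followed through the mouse heart after acute myocardial infarction (AMI). The 55 genes were taken by name: every row of the count and TPM matrices whose symbol was in a list of origin licensing, helicase, polymerase, clamp, single-strand binding, Okazaki fragment, nucleotide supply, G1/S control, chromatin copying and fork protection genes. All 55 were found among the 53801 genes of the matrices, and all 55 passed the filter on low counts, which kept 15306 genes. Whole hearts of adult male C57BL/6N mice were sequenced in 3 groups of 4 hearts: sham surgery, AMI for 1 day and AMI for 7 days. AMI was made by permanent ligation of the left anterior descending coronary artery (LAD), and the labels name no engineered allele. Each library was made from total RNA of a heart, so that heart muscle, vessels, fibroblasts and blood cells were read together, and the day on which sham hearts were taken is not clearly given in the sources used here.

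DNA is copied once per cell cycle from origins that are licensed beforehand. In G1 the origin recognition complex, CDC6 and CDT1 load the MCM helicase onto DNA, and at the start of S phase CDC45 and the GINS complex switch that helicase on. The E2F transcription factors, released from RB proteins by cyclin-dependent kinases, drive most of these genes, and a separate program of mitotic genes follows in G2. Adult heart muscle cells rarely divide, whereas fibroblasts, endothelial cells and macrophages of an injured heart do.

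Depth ran from 23204551 to 32166517 counts per library. Library traits moved with the groups: the TMM factor was 0.78 to 0.92 in sham, 1.01 to 1.06 on day 1 and 1.10 to 1.17 on day 7, and mitochondrial genes took 17.9% to 27.4% of counts in sham, 12.1% to 15.9% on day 1 and 13.2% to 19.2% on day 7, the highest in sham replicate 1. Their part in the results was not tested. Levels are given as CPM, the count scaled to a common library size with TMM factors that even out the makeup of libraries, and hearts are listed from replicate 1 to replicate 4. A differentially expressed gene (DEG) is one whose fold change (FC) reached 2 in either direction with a false discovery rate (FDR) under 0.05, over the 15306 genes, in edgeR's quasi-likelihood test. The adjusted p printed is the Benjamini-Hochberg one of that test. Sham replicate 1 held the most mitosis transcripts among the sham hearts, and sham replicate 2 the most erythroid ones, with a summed TPM of 15177 over 7 red cell markers against a median of 2738 in sham. Calls that change without either of these hearts are given beside the genes.

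Part of the genes of DNA replication were higher after AMI, more of them on day 7 than on day 1. On day 1, 17 of the 55 genes were DEGs higher than in sham and 0 were DEGs lower, where 7.79% of all genes tested were higher and 2.98% lower. On day 7, 29 were higher and 1, *Gmnn*, was lower, against 15.3% and 5.88% of all genes. Between day 1 and day 7, 12 were higher and 0 lower, against 8.55% and 2.69%. The median log2 FC of the 55 genes was 0.64 on day 1 against sham, 1.11 on day 7 against sham and 0.49 on day 7 against day 1, where the medians over all genes were -0.01, 0.03 and 0.02.

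With no minimum on FC, 36 genes passed the FDR as higher and 3 as lower on day 1 (22.0% and 19.9% of all genes), 46 and 4 on day 7 (30.9% and 28.4%), and 31 and 2 between the days (24.2% and 22.8%). All day 1 hearts lay above all sham hearts for 33 of the 55 genes and below them for 3, against 19.6% and 17.1% of all genes. All day 7 hearts lay above sham for 45 and below for 4, against 28.3% and 24.7%, and above day 1 for 30 and below for 0, against 23.5% and 20.9%. These directions are relative to the TMM scale: with library sizes alone, the median log2 FC of all genes moved by 0.27 on day 1, 0.40 on day 7 and 0.13 between the days, and the share of DEGs that were higher went from 72.3% to 89.0% on day 1, from 72.3% to 92.0% on day 7 and from 76.1% to 84.7% between them. On log2(TPM + 1) that share was 93.7%, 95.9% and 86.8%.

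**Figure D1:**
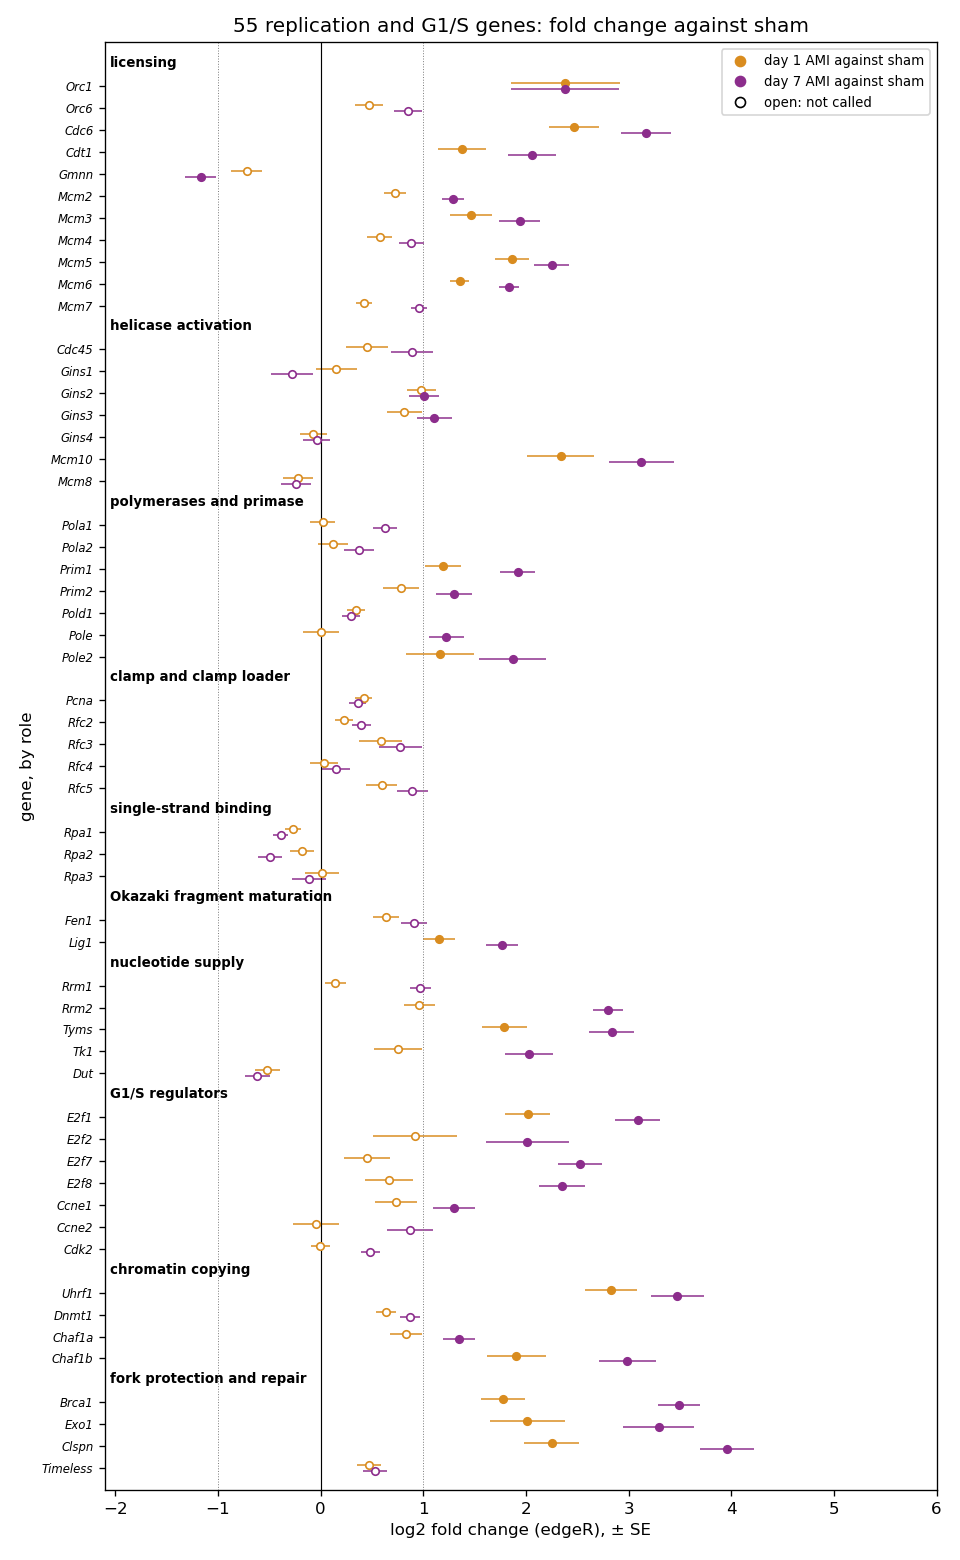
log2 FC of each of the 55 genes against sham, on day 1 (orange) and day 7 (purple), with the standard error of the edgeR fit as bars, ordered by role, and filled points are DEGs, open points are not, and the dotted lines mark an FC of 2. The purple points of *Clspn*, *Brca1* and *Uhrf1* lie farthest right at 3.96, 3.49 and 3.48, and *Gmnn* lies farthest left at -1.17. *Rpa1* and *Rpa2*, left of 0 on day 7, turn to the right on log2(TPM + 1).

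Levels of cell type markers moved as well. They are given in summed TPM, a scale on which most genes shift upward. On log2(TPM + 1) the median log2 FC of all genes was 0.28 on day 1 and 0.48 on day 7 against sham. The summed TPM of 7 fibroblast markers was 494 to 596 in sham, 705 to 936 on day 1 and 3725 to 6612 on day 7, and that of 8 monocyte and macrophage markers was 198 to 357, 503 to 751 and 876 to 1438. Over 6 endothelial markers it was 313 to 456, 418 to 452 and 695 to 861. The 8 cardiomyocyte markers ran the other way, from 64028 to 72914 in sham to 47718 to 59818 on day 1 and 38707 to 50056 on day 7. On the TMM scale the median log2 FC of the 6 endothelial markers was -0.25 on day 1, where 3 passed the FDR as lower and 0 as higher. On day 7 it was 0.35, where 4 passed as higher and 0 as lower. The FDR was passed as lower by 19.9% of all genes on day 1 and as higher by 30.9% on day 7. The summed TPM of 7 neutrophil markers was 4.39 to 236 in sham, 117 to 484 on day 1 and 13.4 to 175 on day 7. Its median was highest on day 1, at 220 against 57.1 in sham and 25.9 on day 7, but the groups overlapped. On day 1, 3 of the 6 neutrophil markers tested were DEGs higher than sham. So were 4 of the 7 fibroblast markers, where 7.79% of all genes were. Of these 7, 6 passed the FDR as higher, and *Dcn* was lower. Its log2 FC was -0.72 (SE 0.13, adjusted p = 0.000682), with all day 1 hearts below all sham hearts. Of the DEGs on day 7 against sham, 5 of 7 fibroblast, 7 of 8 monocyte and macrophage and 5 of 5 T and NK cell markers tested were higher, 6 of 8 cardiomyocyte markers were lower, and of 4 B cell markers 1 was higher. Of 6 erythroid markers tested 4 were lower, of 6 neutrophil markers 1 was higher and 1 lower, of 6 endothelial markers 0 were called, and the 1 marker of immature granulocytes tested was not called. Of all genes tested, 15.3% were higher and 5.88% lower on day 7. For 0 of the erythroid markers did all day 7 hearts lie below all sham hearts. Their summed TPM had a median of 2738 in sham and 2853 on day 7, with sham replicate 2 at 15177. Whether more cells of a type or more RNA per cell stands behind a level cannot be told apart in whole hearts, and the part of these cell types in the replication genes was not tested.

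The promoters of the 55 genes were read for short motifs, since genes that move together may share them. RefSeq promoters of GRCm38.p6, each 300 bases from 250 before to 50 after the start, were at hand for 45 of the 55 genes and for 46 of the 55 genes of a comparison list of mitosis and kinetochore genes. Either of the E2F letters TTTCCCGC and TTTGGCGC, searched on both strands, stood in a promoter of 16 of the 45 genes (35.6%), of 3 of the 46 mitotic ones (6.52%) and of 486 of all 27025 genes with a promoter (1.8%). Some genes have more than 1 promoter, and a gene was counted where any of them held the letters. The CHR letters TTTGAA, known from promoters of mitotic genes, stood in those of 7 of 45 genes (15.6%), 33 of 46 mitotic ones (71.7%) and 20.2% of all genes. CCAAT, a general promoter box, stood in those of 64.4%, 71.7% and 41.1% of genes. In these promoters 1 pair of matches of different motifs overlapped. Among the replication genes that were DEGs on day 1, 6 of 16 with a promoter (37.5%) held E2F letters there, and of those that were not, 10 of 29 (34.5%), and the CHR letters stood in those of 0 of 16 and 7 of 29 (24.1%). Of those higher on day 7, 4 of 25 (16%) held the CHR letters, near the 15.6% of all 45.

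The 250 bases before the start are shown for 5 of the genes and for 2 mitotic genes, Cdk1 and the spindle motor Kif11. They were picked because they hold E2F or CHR letters, while 16 of 45 genes held E2F letters. The sequences run 5′ to 3′ on the strand of the gene, in GRCm38.p6. Capitals mark E2F letters in Mcm5, Mcm6, Cdc6 and Pola1 and CHR letters in E2f8, Cdk1 and Kif11, each on either strand.
Mcm5 promoter, chr8:75109259-75109508, + strand: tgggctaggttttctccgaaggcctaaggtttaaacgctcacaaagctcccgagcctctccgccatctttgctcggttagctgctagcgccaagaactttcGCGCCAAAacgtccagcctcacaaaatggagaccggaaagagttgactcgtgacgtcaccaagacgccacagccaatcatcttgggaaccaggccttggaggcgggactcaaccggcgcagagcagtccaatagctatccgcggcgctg
Mcm6 promoter, chr1:128359706-128359955, - strand: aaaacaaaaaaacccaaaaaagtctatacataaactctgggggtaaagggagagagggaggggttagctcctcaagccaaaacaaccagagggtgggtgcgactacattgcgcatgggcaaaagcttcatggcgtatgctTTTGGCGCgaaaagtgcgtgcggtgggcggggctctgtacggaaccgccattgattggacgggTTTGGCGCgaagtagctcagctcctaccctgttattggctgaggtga
Cdc6 promoter, chr11:98907901-98908150, + strand: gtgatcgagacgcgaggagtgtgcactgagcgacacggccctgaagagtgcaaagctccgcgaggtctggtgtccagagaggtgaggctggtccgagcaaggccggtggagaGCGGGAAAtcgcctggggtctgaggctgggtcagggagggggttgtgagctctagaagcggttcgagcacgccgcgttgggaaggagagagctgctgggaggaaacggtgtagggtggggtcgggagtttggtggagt
Pola1 promoter, chrX:93632156-93632405, - strand: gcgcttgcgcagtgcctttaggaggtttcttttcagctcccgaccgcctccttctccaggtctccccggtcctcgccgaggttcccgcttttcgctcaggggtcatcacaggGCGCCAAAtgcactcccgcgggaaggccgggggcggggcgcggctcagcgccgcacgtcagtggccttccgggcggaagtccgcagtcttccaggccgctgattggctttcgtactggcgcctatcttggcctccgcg
E2f8 promoter, chr7:48881597-48881846, - strand: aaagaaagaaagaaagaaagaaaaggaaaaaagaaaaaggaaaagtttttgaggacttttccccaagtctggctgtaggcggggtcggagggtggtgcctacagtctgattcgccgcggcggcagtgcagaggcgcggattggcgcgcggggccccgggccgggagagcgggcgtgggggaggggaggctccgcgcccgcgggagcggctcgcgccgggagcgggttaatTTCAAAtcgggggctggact
Cdk1 promoter, chr10:69352913-69353162, - strand: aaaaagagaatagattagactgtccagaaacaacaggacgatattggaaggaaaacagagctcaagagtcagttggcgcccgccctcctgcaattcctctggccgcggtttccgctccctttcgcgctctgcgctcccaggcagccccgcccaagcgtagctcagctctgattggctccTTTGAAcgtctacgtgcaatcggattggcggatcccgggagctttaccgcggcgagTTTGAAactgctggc
Kif11 promoter, chr19:37376132-37376381, + strand: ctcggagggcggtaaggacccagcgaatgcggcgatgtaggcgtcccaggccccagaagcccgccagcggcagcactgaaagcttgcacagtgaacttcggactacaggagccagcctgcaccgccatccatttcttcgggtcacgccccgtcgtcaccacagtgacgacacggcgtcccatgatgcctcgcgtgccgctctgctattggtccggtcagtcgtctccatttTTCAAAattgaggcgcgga
In these 250 bases the Mcm6 promoter held the E2F letters at 2 places, Mcm5, Cdc6 and Pola1 at 1 each, and the E2f8 promoter, of a gene that was a DEG on day 7 and not on day 1, held none of them and the CHR letters at 1. Pola1 was not a DEG in any comparison, nor were Cdc45, Dnmt1 and Fen1, whose promoters held the CHR letters. A match is a run of letters and not a shown binding site.

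Of 11 licensing genes, 6 were DEGs higher than sham on day 1 and 7 on day 7, and 0 were DEGs between the days, with a median log2 FC of 0.47 from day 1 to day 7, and 8 of the 11 passed the FDR there as higher. As shares of the list, the DEGs were 54.5%, 63.6% and 0%, against 7.79%, 15.3% and 8.55% of all genes. Between the days 24.2% of all genes passed the FDR as higher. *Cdc6* was at 0.522, 0.246, 0.485 and 0.622 CPM in the sham hearts, 2.52, 2.72, 2.94 and 2.14 on day 1 and 4.04, 4.48, 3.54 and 4.69 on day 7. *Cdc6*, which recruits the helicase to origins, was 5.54-fold higher on day 1, a log2 FC of 2.47 (SE 0.24, adjusted p = 1.47e-05), and 8.98-fold higher on day 7. No heart of a later group overlapped an earlier group. *Cdt1* read 2.24, 2.51, 3.01 and 1.24 CPM in sham, 5.2, 7.22, 6.64 and 4.32 in day 1 AMI and 9.28, 8.5, 8.49 and 11.3 in day 7 AMI. *Cdt1*, its partner in loading, had a log2 FC of 1.38 (SE 0.23, adjusted p = 0.000460) on day 1 and 2.06 (SE 0.23, adjusted p = 4.64e-06) on day 7. *Orc1* was at 0.156, 0.0411, 0.09701 and 0.239 CPM in the sham hearts, 0.879, 0.269, 0.949 and 0.725 on day 1 and 0.616, 0.811, 0.443 and 0.918 on day 7. The counts of *Orc1*, the ATPase of the origin recognition complex, were small, at most 5 in a sham heart, and its log2 FC was 2.38 on day 1, with an SE of 0.53, and -0.01 from day 1 to day 7, where the groups overlapped. *Orc6*, another subunit of that complex, had a log2 FC of 0.47 (SE 0.14, adjusted p = 0.0148) on day 1 and 0.85 on day 7 and was not a DEG.

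The 6 subunits of the MCM2-7 ring, the replicative helicase, all passed the FDR as higher on day 1, but by unequal sizes. *Mcm5* was at 3.13, 4.89, 3.15 and 4.303 CPM in the sham hearts, 14.5, 13.2, 15.2 and 13.7 on day 1 and 21.8, 15.4, 15.4 and 21.4 on day 7. *Mcm3* read 5.63, 10.02, 5.72 and 4.02 CPM in sham, 19.1, 16.4, 18.5 and 16.7 in day 1 AMI and 26.2, 22.3, 21.4 and 27.99 in day 7 AMI. For *Mcm6* the CPM values were 9.598, 10.2, 9.26 and 8.65 in sham, 25.2, 23.3, 25.8 and 22.1 on day 1 and 35.04, 30.4, 31.6 and 37.4 on day 7. The 3 genes did not overlap sham on either day, and their log2 FC on day 1 was 1.86 (SE 0.17, adjusted p = 8.16e-06) for *Mcm5*, 1.47 (SE 0.20, adjusted p = 0.000115) for *Mcm3* and 1.35 (SE 0.09, adjusted p = 1.47e-06) for *Mcm6*. On day 7 their log2 FC against sham was 2.25, 1.94 and 1.83. The other 3 subunits were not DEGs on day 1, with log2 FC of 0.72 for *Mcm2*, 0.57 for *Mcm4* and 0.43 for *Mcm7*, and on day 7 *Mcm2* alone of these was a DEG at 1.29 (SE 0.11, adjusted p = 3.32e-07). *Mcm7* shares 9.49% of its 75-base stretches with other genes, mostly *Gm5487*, and 12.6% of its exon bases overlap other genes, so that its value is less certain. In TPM, the per-length unit that allows levels to be compared between genes, the means of the 6 on day 7 ran from 9.08 for *Mcm4* to 24.2 for *Mcm3*, and in sham from 1.88 for *Mcm5* to 6.695 for *Mcm7*.

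**Figure D2:**
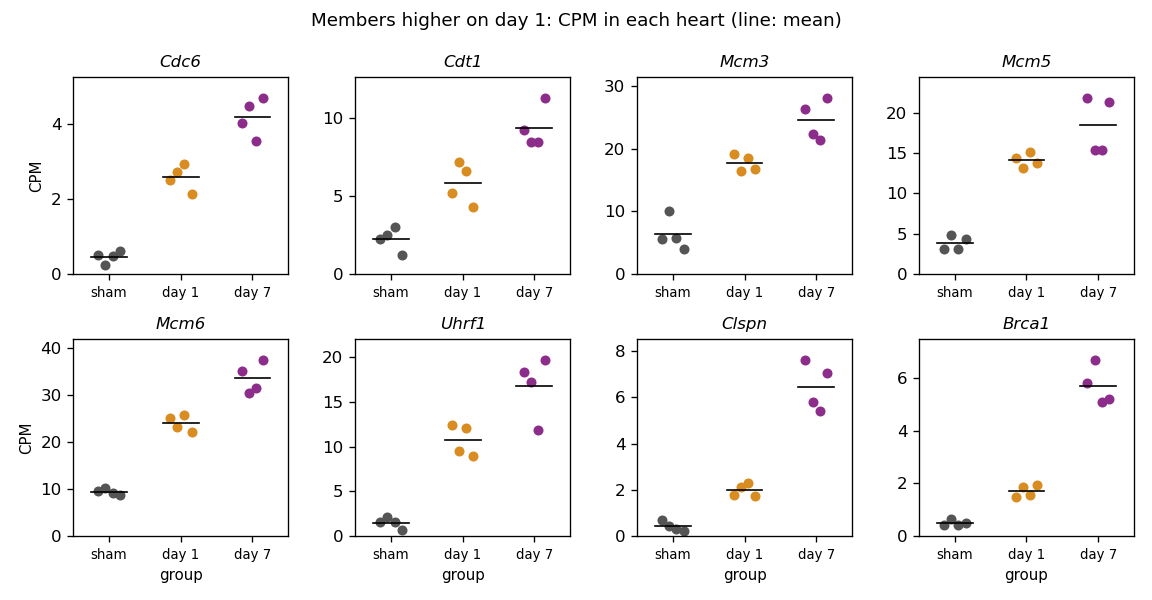
CPM in each heart (points) and the group mean (line) for 8 genes that were DEGs on day 1, with groups along the x axis. In every panel the 4 sham hearts sit under all 4 day 1 hearts, and *Mcm6* runs from 8.65 to 10.2 in sham, 22.1 to 25.8 on day 1 and 30.4 to 37.4 on day 7.

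*Gmnn*, at chr13:24751845-24761923 (GRCm38), went the other way. It encodes geminin, which binds CDT1 and keeps origins from being licensed again. For *Gmnn* the CPM values were 39.2, 36.7, 32.6 and 34.3 in sham, 19.3, 16.5, 20.2 and 30.6 on day 1 and 14.5, 17.3, 15.8 and 15.99 on day 7. All AMI hearts lay below all sham hearts. Its log2 FC was -0.72 (SE 0.15, adjusted p = 0.00186) on day 1 and -1.17 (SE 0.15, adjusted p = 1.72e-05) on day 7, the lowest of the 55 on both days. In TPM it was also lower, at a mean of 61.2 in sham, 46.2 on day 1 and 40.3 on day 7, but the log2 FC of day 7 was then -0.59 on log2(TPM + 1) and -0.77 with library sizes alone, which is under an FC of 2. In sham it had the highest mean TPM of all 55 genes.

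Of the 7 genes that switch the helicase on or serve beside it, 1 was a DEG on day 1 and 3 on day 7. All were higher, at 14.3% and 42.9% of the list, against 7.79% and 15.3% of all genes. *Mcm10* was at 0.522, 0.657, 0.3395 and 0.143 CPM in the sham hearts, 1.61, 2.54, 2.39 and 2.02 on day 1 and 4.47, 3.36, 2.91 and 4.01 on day 7. *Mcm10*, an initiation factor that works at the helicase, was 5.05-fold higher on day 1, a log2 FC of 2.34 (SE 0.32, adjusted p = 0.000113), and had a log2 FC of 3.12 (SE 0.32, adjusted p = 1.85e-06) on day 7. *Gins3* read 1.2, 1.64, 1.504 and 1.48 CPM in sham, 2.71, 2.45, 2.75 and 2.396 in day 1 AMI and 2.68, 3.01, 3.73 and 3.197 in day 7 AMI. *Gins3*, a GINS subunit, was a DEG on day 7 at 1.11 (SE 0.17, adjusted p = 7.55e-05) and had a log2 FC of 0.81 on day 1. Of the other GINS genes, *Gins2* was at a mean of 6.72 ± 1.4 (SD, n = 4), 13.3 ± 1.11 and 13.5 ± 1.68 CPM, whereas *Gins1* and *Gins4* had log2 FC of 0.15 and -0.07 on day 1 and of -0.28 and -0.04 on day 7, with 0 calls. The *Gins2* log2 FC of 1.01 on day 7 is at the edge of an FC of 2: it was 0.99 in DESeq2 and 0.92 to 0.93 without sham replicate 1, sham replicate 3 or day 7 AMI replicate 4. On day 1 its log2 FC of 0.98 became 1.01 (adjusted p = 0.000386), a DEG, without sham replicate 2. In *Gins2* 67.3% of the exon bases overlap *Gse1* on the opposite strand, which cannot be told apart without the strand counted. The *Gins4* value of day 7 turned to 0.36 (adjusted p = 0.0225) with library sizes alone. *Mcm8*, a helicase of DNA repair, had a log2 FC of -0.22 on day 1 and -0.24 on day 7. *Cdc45* had a log2 FC of 0.45 (SE 0.21, adjusted p = 0.0945) on day 1 and 0.89 (SE 0.21, adjusted p = 0.00186) on day 7, which without sham replicate 1 was 1.00 (adjusted p = 0.00180) and a DEG.

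Among the 7 polymerase and primase genes, 2 were DEGs on day 1, 4 on day 7 and 1 between the days. By share, 28.6%, 57.1% and 14.3% were higher, against 7.79%, 15.3% and 8.55% of all genes. *Prim1* was at 1.41, 1.72, 1.07 and 1.15 CPM in the sham hearts, 3.37, 3.16, 3.04 and 2.74 on day 1 and 4.84, 5.22, 4.94 and 5.37 on day 7. *Prim1*, the catalytic subunit of primase, had a log2 FC of 1.19 (SE 0.17, adjusted p = 0.000144) on day 1 and 1.92 (SE 0.17, adjusted p = 5.70e-07) on day 7, and no group overlapped another. *Pole2* read 1.04, 0.7803, 0.631 and 0.239 CPM in sham, 1.61, 1.49, 1.799 and 1.14 in day 1 AMI and 1.79, 3.05, 2.25 and 2.79 in day 7 AMI. *Pole2*, an accessory subunit of polymerase epsilon, had a log2 FC of 1.16 (SE 0.33, adjusted p = 0.0126) on day 1, which fell to 0.88 without sham replicate 4, and 1.87 (SE 0.33, adjusted p = 0.000211) on day 7. It shares 6.09% of its 75-base stretches with other genes, mostly *Gm49384*. For the catalytic subunit of the same enzyme, *Pole* was at 4.23, 3.04, 3.93 and 5.21 CPM in sham, 4.13, 3.55, 4.84 and 3.88 on day 1 and 8.17, 9.93, 9.08 and 11.1 on day 7, a log2 FC of 0.00213 (SE 0.17, adjusted p = 0.994) on day 1 and 1.22 (SE 0.17, adjusted p = 5.13e-05) from day 1 to day 7. The sham and day 1 hearts overlapped and all day 7 hearts lay above both. *Pola1*, the catalytic subunit of polymerase alpha, had the same order with a log2 FC of 0.02 on day 1 and 0.61 (SE 0.12, adjusted p = 0.000686) from day 1 to day 7, without reaching an FC of 2. *Pold1*, of polymerase delta, had the log2 FC 0.35 (SE 0.09, adjusted p = 0.00610) on day 1 and -0.06 after that. *Prim2* was a DEG on day 7 at 1.30, and *Pola2* was not a DEG in any comparison.

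The clamp, the clamp loader and the single-strand binding protein had 0 DEGs in all 3 comparisons, though 3 of the 5 clamp genes on day 1 and 4 of 5 on day 7 passed the FDR as higher. Of all genes, 22.0% and 30.9% passed it as higher on these days. *Pcna* was at 32.6, 35.5, 30.99 and 30.9 CPM in the sham hearts, 47.6, 42.7, 44.1 and 39.6 on day 1 and 42.5, 41.9, 38.5 and 44.1 on day 7. *Pcna*, the sliding clamp and the member with the highest mean TPM on both AMI days, had a log2 FC of 0.42 (SE 0.08, adjusted p = 0.00103) on day 1 and 0.36 (SE 0.08, adjusted p = 0.00140) on day 7, and all AMI hearts lay above sham. It shares 13.85% of its 75-base stretches with other genes, mostly *Pcna-ps2*. *Rfc2* read 17.7, 21.2, 16.2 and 17.9 CPM in sham, 21.5, 20.4, 22.7 and 21.2 in day 1 AMI and 24.2, 25.3, 21.95 and 24.8 in day 7 AMI. *Rfc2*, a clamp loader subunit, had a log2 FC of 0.40 (SE 0.09, adjusted p = 0.00165) on day 7, and 15.1% of its exon bases overlap *Lat2*. *Rfc5* had 0.89, *Rfc3* 0.78 and *Rfc4* 0.15 on day 7.

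Both larger subunits of replication protein A, which coats single-stranded DNA, were lower on day 7 than in sham on the TMM scale, and in TPM the direction turned. *Rpa1* was at 67.7, 68.2, 65.1 and 62.97 CPM in the sham hearts, 58.5, 48.1, 57.9 and 54.1 on day 1 and 49.99, 48.6, 54.2 and 48.7 on day 7. *Rpa2* read 14.1, 17.5, 18.8 and 17.8 CPM in sham, 14.3, 12.7, 15.7 and 17.4 in day 1 AMI and 10.6, 12.1, 12.5 and 13.3 in day 7 AMI. The log2 FC of *Rpa1* was -0.27 (SE 0.08, adjusted p = 0.0111) on day 1 and -0.39 (SE 0.08, adjusted p = 0.000527) on day 7, with all AMI hearts below all sham hearts, and that of *Rpa2* was -0.49 (SE 0.12, adjusted p = 0.00268) on day 7. On log2(TPM + 1) the day 7 values were 0.19 (adjusted p = 0.0981) for *Rpa1* and 0.08 (adjusted p = 0.601) for *Rpa2* by limma, so that no direction holds over the scalings. *Rpa3* had a log2 FC of 0.01 on day 1 and -0.11 on day 7 and did not pass the FDR in any comparison, with 7.35% of its 75-base stretches shared, mostly with *Gm6195*. On log2(TPM + 1) it was at 0.40 (adjusted p = 0.0385) on day 7.

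In the maturation of Okazaki fragments, *Lig1*, the ligase that seals them, was a DEG on both days. *Lig1* was at 2.92, 5.17, 3.298 and 3.299 CPM in the sham hearts, 8.83, 8.295, 8.15 and 7.63 on day 1 and 13.6, 12.1, 11.3 and 13.4 on day 7. Its log2 FC was 1.15 (SE 0.16, adjusted p = 0.000111) on day 1 and 1.77 (SE 0.16, adjusted p = 6.39e-07) on day 7, and no group overlapped another. *Fen1*, which trims the flaps, had a log2 FC of 0.64 on day 1 and 0.91 on day 7 and passed the FDR on both, but 84.2% of its exon bases overlap *Tmem258* and *Gm10143* on the annotation, so that its reads cannot be told apart from theirs without the strand counted.

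Of the 5 enzymes of nucleotide supply, 1 was a DEG on day 1, 3 on day 7 and 3 between the days. All were higher, at 20%, 60% and 60% of the list, against 7.79%, 15.3% and 8.55% of all genes. *Tyms* was at 1.67, 1.81, 1.26 and 1.004 CPM in the sham hearts, 4.78, 5.43, 6.15 and 3.56 on day 1 and 11.8, 9.002, 8.74 and 11.7 on day 7. *Tyms*, thymidylate synthase, was the DEG of day 1 here, 3.45-fold higher at a log2 FC of 1.79 (SE 0.22, adjusted p = 5.63e-05), and on day 7 it was at 2.84 (SE 0.22, adjusted p = 1.79e-07). From day 1 to day 7 its log2 FC of 1.05 (SE 0.19, adjusted p = 0.000521) was under an FC of 2, at 0.91 to 0.98, without day 1 AMI replicate 4 or day 7 AMI replicate 1 or 4. *Rrm2* read 1.77, 2.3, 2.38 and 2.44 CPM in sham, 4.63, 4.42, 3.93 and 4.41 in day 1 AMI and 14.4, 18.4, 13.1 and 16.1 in day 7 AMI. *Rrm2*, the small subunit of ribonucleotide reductase, had a log2 FC of 0.96 (SE 0.15, adjusted p = 0.000229) on day 1, just under an FC of 2, and of 1.83 (SE 0.13, adjusted p = 3.06e-07) from day 1 to day 7. For *Tk1* the CPM values were 2.03, 5.05, 2.23 and 3.06 in sham, 5.05, 4.89, 4.91 and 6.21 on day 1 and 14.9, 11.3, 11.1 and 13.6 on day 7. *Tk1*, thymidine kinase of S phase, had a log2 FC of 0.75 (SE 0.23, adjusted p = 0.0193) on day 1 and 1.28 (SE 0.22, adjusted p = 0.000327) from day 1 to day 7. The high sham value of *Tk1* was that of replicate 2, the heart rich in erythroid transcripts, and without it the day 1 log2 FC was 1.10 (adjusted p = 0.000516). Why *Tk1* was high in that heart was not tested. *Rrm1*, the large subunit, had a log2 FC of 0.14 on day 1 and 0.83 (SE 0.10, adjusted p = 2.17e-05) from day 1 to day 7, and on day 7 the large and small subunits had log2 FC of 0.97 and 2.79 against sham. Without sham replicate 1 or 2 that of *Rrm1* was 1.01 (adjusted p = 8.15e-06 and 7.52e-06) and a DEG.

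*Dut*, the dUTPase that keeps uracil out of DNA, was lower than sham on the TMM scale. For *Dut* the CPM values were 23.9, 21.4, 23.6 and 23.6 in sham, 15.9, 12.4, 16.6 and 19.6 on day 1 and 16.6, 13.6, 14.2 and 15.8 on day 7. All AMI hearts lay below all sham hearts, with a log2 FC of -0.52 (SE 0.12, adjusted p = 0.00362) on day 1 and -0.62 (SE 0.12, adjusted p = 0.000551) on day 7. On log2(TPM + 1) these were -0.20 (adjusted p = 0.220) and -0.13 (adjusted p = 0.397) by limma, and neither passed the FDR.

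Among 7 G1/S regulators, 1 was a DEG on day 1, 5 on day 7 and 4 between the days. By share, 14.3%, 71.4% and 57.1% were higher, against 7.79%, 15.3% and 8.55% of all genes. *E2f1* was at 1.095, 1.396, 1.02 and 0.526 CPM in the sham hearts, 3.79, 4.45, 4.55 and 3.72 on day 1 and 9.03, 8.27, 7.53 and 9.86 on day 7. *E2f1*, an activator of S phase genes, was 4.05-fold higher on day 1 and 8.51-fold on day 7, with a log2 FC of 2.02 (SE 0.22, adjusted p = 2.67e-05) and 3.09 (SE 0.22, adjusted p = 8.76e-08), and no group overlapped another. *E2f7* read 1.304, 1.72, 0.873 and 1.43 CPM in sham, 1.68, 1.34, 2.19 and 2.11 in day 1 AMI and 7.64, 8.11, 6.46 and 8.74 in day 7 AMI. For *E2f8* the CPM values were 0.887, 1.03, 1.41 and 1.58 in sham, 2.52, 1.46, 2.19 and 1.64 on day 1 and 7.09, 6.61, 5.13 and 6.26 on day 7. These 2, the atypical E2Fs that repress E2F targets, overlapped between sham and day 1 and lay clear above on day 7, at a log2 FC from day 1 to day 7 of 2.08 (SE 0.20, adjusted p = 3.49e-06) for *E2f7* and 1.69 (SE 0.21, adjusted p = 2.50e-05) for *E2f8*. On day 1 their log2 FC was 0.45 (SE 0.22, adjusted p = 0.123) and 0.67 (SE 0.23, adjusted p = 0.0336).

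*E2f2*, a further activator, was at 1.095, 2.75, 0.631 and 0.574 CPM in sham, 2.52, 2.98, 1.96 and 2.27 on day 1 and 5.58, 3.55, 4.02 and 7.69 on day 7. The sham value of 2.75 is that of replicate 2, and the day 1 log2 FC was 0.92 (SE 0.41, adjusted p = 0.0872) with that heart and 1.67 (adjusted p = 0.00175) without it. From day 1 to day 7 it was 1.10 (SE 0.37, adjusted p = 0.0255), a call lost without day 1 AMI replicate 1, 3 or 4 or without day 7 AMI replicate 4, where the log2 FC was 0.85 to 1.11 (adjusted p = 0.0501 to 0.0940). *Ccne1*, cyclin E1, was a DEG on day 7 at 1.30 (SE 0.20, adjusted p = 7.96e-05) and had a log2 FC of 0.73 on day 1. *Ccne2* and *Cdk2*, the other cyclin E and its kinase, had log2 FC of -0.05 and -0.00362 on day 1 and of 0.87 (SE 0.22, adjusted p = 0.00378) and 0.48 (SE 0.09, adjusted p = 0.000456) on day 7. Without sham replicates 1 and 2 together, *Ccne2* was a DEG on day 7 at 1.11 (adjusted p = 0.00503). In *Ccne2* 17.4% of the exon bases overlap *Ints8*.

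**Figure D3:**
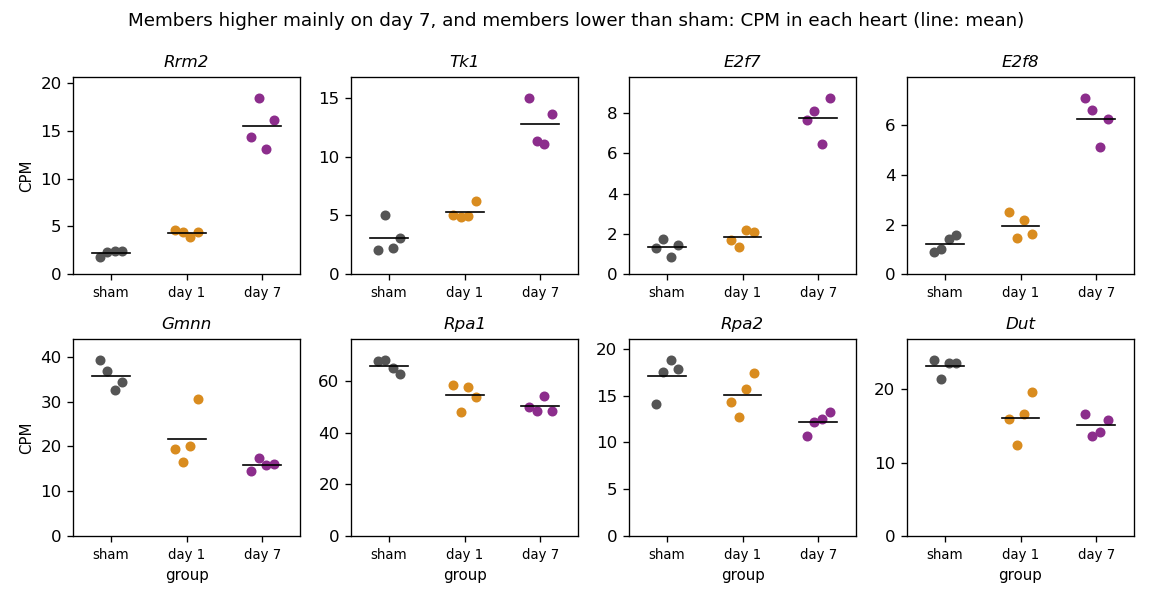
CPM in each heart (points) and the group mean (line) for 4 genes higher mainly on day 7 (top row) and 4 genes lower than sham at the FDR on the TMM scale (bottom row). *E2f7* lies between 0.873 and 2.19 in all sham and day 1 hearts and between 6.46 and 8.74 on day 7, and of the lower genes *Rpa1* and *Rpa2* turn direction on log2(TPM + 1).

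Of the 4 genes that copy chromatin with the DNA, 2 were DEGs on day 1, 3 on day 7 and 1 between the days. All were higher, at 50%, 75% and 25% of the list, against 7.79%, 15.3% and 8.55% of all genes. *Uhrf1* was at 1.62, 2.09, 1.601 and 0.669 CPM in the sham hearts, 12.4, 9.49, 12.1 and 8.92 on day 1 and 18.4, 17.3, 11.8 and 19.7 on day 7. *Uhrf1*, at chr17:56303321-56323486 (GRCm38), which reads hemimethylated DNA behind the fork, had the largest day 1 change of the 55 genes in this fit, 7.095-fold, at a log2 FC of 2.83 (SE 0.26, adjusted p = 8.16e-06), and 3.48 (SE 0.26, adjusted p = 1.24e-07) on day 7. Day 1 and day 7 overlapped through day 7 AMI replicate 3. It shares 9.05% of its 75-base stretches with other genes, mostly *Gm5648*. *Chaf1b* read 0.574, 0.3696, 0.631 and 0.526 CPM in sham, 1.57, 2.27, 2.55 and 1.45 in day 1 AMI and 3.39, 3.67, 3.8 and 5.75 in day 7 AMI. *Chaf1b*, of the histone chaperone CAF-1, had a log2 FC of 1.91 (SE 0.28, adjusted p = 0.000185) on day 1 and 1.08 (SE 0.23, adjusted p = 0.00177) from day 1 to day 7, the latter under an FC of 2, at 0.88 to 0.99, without day 1 AMI replicate 1 or 4 or day 7 AMI replicate 4. Its partner *Chaf1a* was at a log2 FC of 0.83 and 1.35 against sham, a DEG on day 7, with 52.5% of its exon bases overlapping *Ubxn6*. *Dnmt1*, the methyltransferase that UHRF1 guides, was at a mean of 26.1 ± 1.43, 40.7 ± 2.87 and 47.7 ± 6.46 CPM (SD, n = 4) and passed the FDR but not an FC of 2 on both days.

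Of the 4 genes of fork protection and repair, 3 were DEGs in every comparison. By share, 75% were higher in each, against 7.79%, 15.3% and 8.55% of all genes. *Clspn* was at 0.678, 0.452, 0.291 and 0.239 CPM in the sham hearts, 1.76, 2.12, 2.29 and 1.73 on day 1 and 7.61, 5.795, 5.42 and 7.04 on day 7. *Clspn*, at chr4:126556935-126593903 (GRCm38), claspin of the replication checkpoint, had the largest day 7 change of the 55 in this fit, 15.5-fold, at a log2 FC of 3.96 (SE 0.26, adjusted p = 5.23e-08), after 2.25 (SE 0.27, adjusted p = 4.99e-05) on day 1. *Brca1* read 0.417, 0.657, 0.437 and 0.478 CPM in sham, 1.49, 1.88, 1.57 and 1.95 in day 1 AMI and 5.82, 6.68, 5.09 and 5.204 in day 7 AMI. *Brca1*, of homologous recombination, had a log2 FC of 1.77 (SE 0.21, adjusted p = 4.99e-05) on day 1 and 3.49 (SE 0.21, adjusted p = 2.18e-08) on day 7. For *Exo1* the CPM values were 0.261, 0.329, 0.146 and 0.287 in sham, 0.688, 1.22, 1.21 and 1.07 on day 1 and 3.11, 3.32, 1.51 and 2.31 on day 7. *Exo1*, an exonuclease of DNA repair, had 2.01 (SE 0.36, adjusted p = 0.000670) and 3.29 (SE 0.35, adjusted p = 2.50e-06). None of the 3 overlapped between any groups. *Timeless*, of the fork protection complex, was not a DEG, at a log2 FC of 0.47 on day 1 and 0.53 on day 7.

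The 25 genes without a call had log2 FC from -0.62 to 0.97 over the 3 comparisons. *Pcna*, *Rpa1* and *Rfc2* had the highest mean TPM among them. In TPM the median of the 55 means was 2.00 in sham, 5.68 on day 1 and 8.91 on day 7, and the number of genes with a mean TPM of at least 10 was 8, 15 and 23. *Orc1* had the lowest mean TPM in all 3 groups, at 0.0525, 0.41 and 0.552.

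Whether replication genes rise before mitotic ones was asked with 55 genes of mitosis and the kinetochore, counted in the same fits. On day 1, 22 of the 55 mitotic genes were DEGs higher than sham and 1, *Sgo2a*, was lower, beside 17 and 0 of the replication genes. Of all genes tested, 7.79% were higher and 2.98% lower, the latter above the 1.82% of the mitotic list. With no minimum on FC, 31 mitotic and 36 replication genes passed the FDR as higher, and all day 1 hearts lay above all sham hearts for 25 mitotic and 33 replication genes. Of all genes, 22.0% passed the FDR as higher and 19.6% lay apart in that way. The mitotic count was 35 without sham replicate 1 and 38 without sham replicates 1 and 2, where the replication counts were 17 and 18. Without sham replicate 4 the order turned, with 15 mitotic and 18 replication genes. On log2(TPM + 1) the day 1 counts were 2 mitotic and 10 replication genes (53 of the 55 replication genes passed the TPM filter), on log2(TPM + 0.1) 26 and 22, and with library sizes alone 36 and 24. On day 7 against sham, 49 mitotic genes were higher and 1, *Pttg1*, lower, beside 29 and 1. Of all genes, 15.3% were higher and 5.88% lower, the latter above the 1.82% of the mitotic list. From day 1 to day 7, 50 mitotic genes were higher, beside 12 replication genes and 8.55% of all genes. The median log2 FC of the mitotic genes was 0.97 on day 1, 3.93 on day 7 and 2.74 between the days, beside 0.64, 1.11 and 0.49. Both lists held DEGs on day 1, and *Sgo2a*, a guard of sister chromatids, and *Pttg1*, securin, were named after their values were seen.

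Genes that were DEGs higher on day 7 were also taken alone. The 29 replication genes among them had a median log2 FC of 1.19 on day 1 against sham and 0.71 from day 1 to day 7, and the 49 mitotic genes 1.00 and 2.76. These genes were chosen on day 7 against sham, so the values are a description. *Cdk1* was at 0.835, 0.575, 0.485 and 0.478 CPM in the sham hearts, 2.29, 2.57, 2.49 and 1.86 on day 1 and 19.1, 13.6, 12.4 and 16.5 on day 7. *Cdk1*, the kinase that starts mitosis, had a log2 FC of 1.96 (SE 0.23, adjusted p = 4.14e-05) on day 1 and 2.74 (SE 0.18, adjusted p = 8.56e-08) from day 1 to day 7. *Ccnb1* read 0.678, 0.534, 0.09701 and 0 CPM in sham, 0.765, 1.19, 1.14 and 0.914 in day 1 AMI and 16.8, 11.3, 7.75 and 10.3 in day 7 AMI. For *Bub1* the CPM values were 0.678, 0.164, 0.09701 and 0 in sham, 0.727, 1.34, 1.08 and 0.662 on day 1 and 7.15, 7.34, 4.35 and 7.18 on day 7. *Ccnb1*, cyclin B1, and *Bub1*, of the spindle checkpoint, had 0 reads in sham replicate 4, and their log2 FC from day 1 to day 7 was 3.51 (SE 0.39, adjusted p = 1.05e-05) and 2.76 (SE 0.40, adjusted p = 9.33e-05).

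*Foxm1* was at 1.46, 1.07, 0.825 and 0.191 CPM in the sham hearts, 2.29, 2.72, 3.5 and 2.81 on day 1 and 26.1, 15.1, 16.2 and 21.02 on day 7. *Aurkb* read 1.51, 0.739, 0.388 and 0.0956 CPM in sham, 1.84, 2.45, 1.73 and 2.49 in day 1 AMI and 10.8, 5.91, 7.16 and 9.42 in day 7 AMI. For *Plk1* the CPM values were 1.15, 0.452, 0.243 and 0.191 in sham, 1.26, 1.34, 0.883 and 0.568 on day 1 and 14.2, 7.804, 8.23 and 10.6 on day 7. *Foxm1*, a transcription factor of G2 and M genes, *Aurkb*, the Aurora B kinase, and *Plk1*, the polo-like kinase, were highest among sham hearts in replicate 1. Their log2 FC on day 1 was 1.68 (SE 0.35, adjusted p = 0.00180), 1.65 (SE 0.44, adjusted p = 0.00843) and 1.01 (SE 0.46, adjusted p = 0.0897), and from day 1 to day 7 it was 2.79, 1.97 and 3.33, each a DEG.

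**Figure D4:**
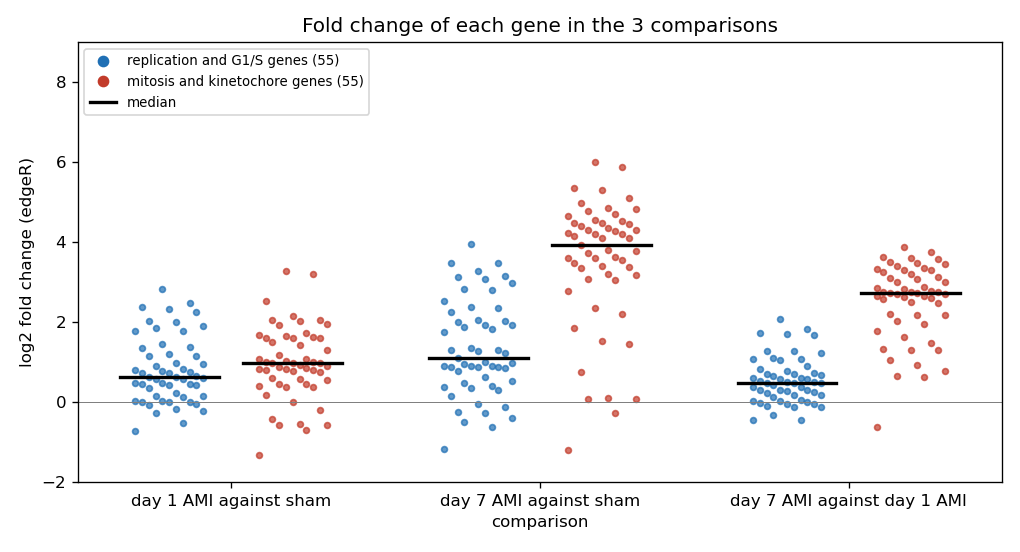
log2 FC of each of 55 replication and G1/S genes (blue) and 55 mitosis and kinetochore genes (red) in the 3 comparisons, with the median of each list as a black line. The medians are 0.64 and 0.97 on day 1 against sham, 1.11 and 3.93 on day 7 against sham, and 0.49 and 2.74 on day 7 against day 1.

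Within each heart, the mean log2 CPM of the replication list minus that of the mitotic list was 1.20, 1.96, 2.21 and 2.41 in sham, 1.81, 1.68, 1.77 and 1.75 on day 1 and -0.41, -0.15, 0.03 and -0.13 on day 7. Day 1 lay within the range of sham, and all 4 day 7 hearts lay below both. The replication mean was 1.91 ± 0.09 (SD, n = 4) in sham, 2.70 ± 0.06 on day 1 and 3.24 ± 0.11 on day 7, and the mitotic mean was -0.03 ± 0.57, 0.95 ± 0.06 and 3.41 ± 0.26. In log2 CPM on day 1, the replication mean stood at 59.2% of its way from sham to day 7 and the mitotic mean at 28.5%. The mitotic mean of the sham hearts ran from -0.59 to 0.71, so that the start of its way is uncertain. This share was taken on the TMM scale alone and with all hearts. By role, this share was 74.2% for licensing, 79.8% for helicase activation, 71.4% for chromatin copying, 72.7% for the clamp and its loader, 67.7% for Okazaki fragments, 56.8% for fork protection and repair, 48.3% for polymerases and primase, 39.4% for nucleotide supply and 38.8% for G1/S regulators. The whole way was short for some roles, at 0.52 log2 CPM for the clamp and its loader and 0.78 for helicase activation. It was 2.67 for fork protection and repair. The single-strand binding genes, whose mean fell from sham to day 7 on this scale, stood at 48.8% of the way down. The day 1 minus sham difference of the 2 lists was -0.19 in log2 CPM and 0.27 on log2(TPM + 1), so that no order of the lists on day 1 holds over the scales.

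**Figure D5:**
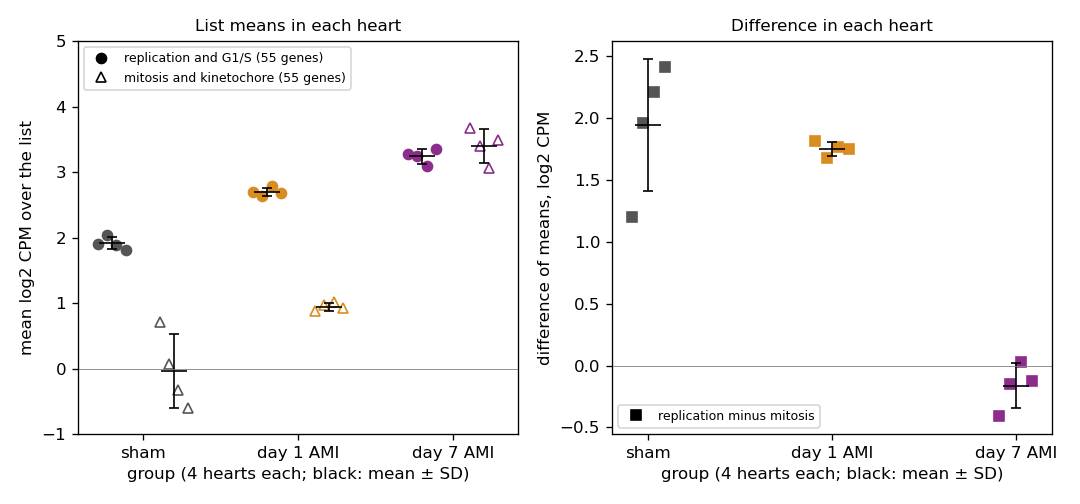
Left, the mean log2 CPM over 55 replication and G1/S genes (filled circles) and 55 mitosis and kinetochore genes (open triangles) in each heart, and right, their difference, with mean ± SD of 4 hearts in black. The difference lies between 1.20 and 2.41 in sham, 1.68 and 1.81 on day 1 and -0.41 and 0.03 on day 7, and sham replicate 1 is the lowest sham point on the right.

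Other genes of the pathway were listed by role. Of 28 further origin and fork genes, 3 were DEGs higher on day 1, 8 on day 7 and 3 between the days, with 0 lower. These were 10.7%, 28.6% and 10.7% of the list, against 7.79%, 15.3% and 8.55% of all genes tested. The shares on day 1 and between the days were thus near those of all genes. *Top2a*, the topoisomerase of S phase and mitosis, had the largest day 7 change there, a log2 FC of 4.79 (SE 0.33, adjusted p = 7.26e-08), and *Ticrr*, which helps to fire origins, the next at 4.38 (SE 0.35, adjusted p = 2.41e-07). Of 24 further G1 cyclin, CDK and E2F-RB genes, 6 were higher and 1 lower on day 1, and 8 higher and 1 lower on day 7. On day 1 these were 25% and 4.17%, against 7.79% and 2.98% of all genes. On day 7 they were 33.3% and 4.17%, against 15.3% and 5.88%. *Ccna2*, cyclin A2, had 4.87 (SE 0.32, adjusted p = 5.58e-08) on day 7 and *Dtl*, which marks CDT1 for breakdown in S phase, 4.62 (SE 0.29, adjusted p = 3.47e-08). The lower gene on both days was *Tfdp2*, a dimer partner of E2F, at a log2 FC of -1.21 and -1.04. From day 1 to day 7, 5 of the 24 were higher and 1 lower, or 20.8% and 4.17%, against 8.55% and 2.69% of all genes. *Myc*, a growth regulator upstream of G1, was the gene that was lower from day 1 to day 7, at -1.07 (SE 0.22, adjusted p = 0.00119), after 2.01 (SE 0.23, adjusted p = 4.13e-05) on day 1. These 2 were named after their values were seen.

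Of 8 further genes of nucleotide supply, 0 were DEGs on day 1 and 1, *Dck*, on day 7, at a log2 FC of 1.48 (SE 0.14, adjusted p = 9.45e-07). That 1 gene is 12.5% of the list, near the 15.3% of all genes. Of these 8, 2 passed the FDR as higher and 1 as lower on day 1, where 22.0% and 19.9% of all genes did. On day 7, 4 and 3 did, against 30.9% and 28.4%. Of 23 further genes of S phase chromatin and repair, 8 were higher on day 1, 14 on day 7 and 10 between the days. These were 34.8%, 60.9% and 43.5%, against 7.79%, 15.3% and 8.55% of all genes. The list was led on day 7 by *Pclaf*, a PCNA partner, at 4.72 (SE 0.32, adjusted p = 6.33e-08) and *Rad51ap1*, of recombination, at 3.31 (SE 0.31, adjusted p = 7.88e-07).

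Among the 7 inhibitors of cyclin-dependent kinases, 1 was a DEG on day 1, 2 on day 7 and 2 between the days, all higher. These were 14.3%, 28.6% and 28.6%, against 7.79%, 15.3% and 8.55% of all genes. *Cdkn2a* was a DEG in all 3 comparisons from very few reads, with counts of 0, 0, 2 and 0 in sham, 4, 11, 5 and 7 on day 1 and 27, 15, 12 and 13 on day 7, and no fold is given for it. *Cdkn2b* was a DEG on day 7 at 2.80 (SE 0.45, adjusted p = 0.000103), after 1.19 (SE 0.48, adjusted p = 0.0577) on day 1. *Cdkn2c* had a log2 FC of -0.02 (SE 0.14, adjusted p = 0.940) on day 1 and 0.81 (SE 0.14, adjusted p = 0.000232) on day 7. *Cdkn1a*, the p21 inhibitor, spread widely within groups, at 48.2, 56.5, 18.3 and 11.7 CPM in sham and 65.01, 127, 46.7 and 40.7 on day 1, with a log2 FC of 1.05 (SE 0.47, adjusted p = 0.0857). *Cdkn1b* and *Cdkn1c* had log2 FC of -0.33 (SE 0.09, adjusted p = 0.00965) and -0.86 (SE 0.24, adjusted p = 0.00961) on day 1, under an FC of 2. *Cdkn2d* had 0.24 (SE 0.14, adjusted p = 0.195) on day 1 and -0.13 (SE 0.15, adjusted p = 0.479) on day 7. With no minimum on FC, 1 of the 7 passed the FDR as higher and 2 as lower on day 1 (22.0% and 19.9% of all genes). On day 7 these were 3 and 1 (30.9% and 28.4%).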

How the data were processed

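The 12 libraries were grouped by their labels, with 4 hearts in each of 3 groups, and replicate numbers name different mice. The authors trimmed reads with Cutadapt, aligned them with STAR 2.4.0j to GRCm38 (mm10) and ran RSEM. The authors deposited raw counts per gene, whole numbers without normalization, and TPM from RSEM. The counter, the strand counted and the treatment of reads with several places are not given in the sources used here.

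Counts were tested with edgeR 4.0.16 (R 4.3.3): genes kept by filterByExpr, TMM factors, 1 quasi-likelihood fit of all libraries, and Benjamini-Hochberg adjustment over the genes kept. log2 CPM used a prior count of 2. TPM was tested with limma 3.58.1 as an alternative, and DESeq2 1.42.0 was another. Tests were first tried on simulated data. Libraries of a group differed beyond sampling noise (chi-square per degree of freedom at least 9.25). Counting error limits genes with few counts, and 3 counts were taken as the floor. Each p-value of the edgeR fit sets a difference between groups against the spread between these mice. That spread was estimated over all 3 groups, with information shared across genes.

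Gene overlaps and shared 75-base stretches came from GENCODE M21, and promoters from RefSeq GRCm38.p6. *Sgo2a* was matched by its identifier to the older symbol *Sgol2a*. The members and lists were chosen with earlier results of these data known. Values in every heart are given for members that were DEGs on day 1, for the 2 members of each role with the largest day 7 change among DEGs, for members lower at the FDR, and for the 3 most abundant members without a call. For mitosis 6 genes, for the other lists the 2 DEGs with the largest day 7 change, and all CDK inhibitors were named.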

Additional observations from a re-analysis of the deposited data

Results flagged for a closer look

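Of 174 sets of 4 hearts, 6 held a heart whose gap to its nearest neighbour took up nearly the whole range of the set (the ratio printed below, over Dixon's 95% critical value for 4 samples). Chance alone flags about 1 in 20 such sets. *Gins1* on day 1 stood at a log2 CPM of 1.92 in replicate 4 against 1.24 to 1.31 in the others (ratio 0.896). *Tk1* on day 1 stood at 2.65 in replicate 4 against 2.31 to 2.36 (ratio 0.870). *Ccne1* on day 1 stood at 1.67 in replicate 3 against 1.11 to 1.13 (ratio 0.956). *Rfc5* in sham stood at 2.65 in replicate 4 against 2.21 to 2.24 (ratio 0.943). *Dut* in sham stood at 4.42 in replicate 2 against 4.56 to 4.59 (ratio 0.862). *Dnmt1* in sham stood at 4.59 in replicate 1 against 4.75 in the other 3 (ratio 0.983).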

How the results depend on the processing

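DESeq2, RLE factors, no filter on low counts and fits of only the groups compared kept all counts of DEGs within 1.5 times. On log2(TPM + 1) the replication genes higher on day 1 numbered 10 and those higher from day 1 to day 7 numbered 7, and the mitotic genes higher on day 1 numbered 2. Genes lower numbered 0 for both lists on log2(TPM + 1), log2(TPM + 0.1) and, on day 7, with library sizes alone, where 36 mitotic genes were higher on day 1. With no minimum on FC, 36 replication genes were higher and 3 lower on day 1, 46 and 4 on day 7, and 31 and 2 between the days, and 5 mitotic genes were lower on day 1 and 1 between the days. The difference between the lists, day 1 minus sham, was 0.27 on log2(TPM + 1) and 0.0395 on log2(TPM + 0.1), against -0.19, and day 7 minus day 1 was -1.22 on log2(TPM + 1), against -1.92. The cause was not tested.

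Leaving out each heart gave 17 to 20 replication genes higher on day 1, 28 to 31 on day 7 and 9 to 12 between the days (9 without day 7 AMI replicate 4), and 15 (without sham replicate 4) to 35 (without sham replicate 1) mitotic genes on day 1, 49 on day 7 and 49 to 50 between them. Lower counts stayed at 0, 1 and 0 for the replication genes and at 1, 1 and 0 for the mitotic genes. The difference of the lists ran from -0.44 to -0.04 for day 1 minus sham and from -1.98 to -1.83 for day 7 minus day 1. Without sham replicates 1 and 2, chosen after seeing the data, 38 mitotic genes were higher on day 1.

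Among values that passed the FDR in either fit, direction turned with library sizes alone or in TPM and in no other setting run. *Rpa1* went to 0.0197 on day 1 and 0.19 on day 7 on log2(TPM + 1), to 0.0202 and 0.20 on log2(TPM + 0.1) and to 0.00774 on day 7 with library sizes alone. *Rpa2* went to 0.0810 and 0.0874 and *Rpa3* to 0.40 and 0.42 on day 7 on the 2 TPM scales. *Cdk2* on day 1 went to 0.32, 0.35 and 0.27 and *Gins4* on day 7 to 0.49, 0.52 and 0.36 on the 2 TPM scales and with library sizes alone. Under all alternatives together, 33 values of single genes lost a call and 72 gained one. The sign changed in 96 values, these 15 and 81 that passed the FDR in neither fit, and 53 of the 96 were in TPM or with library sizes alone.

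Replicate numbers were not taken to pair the hearts: over 12 pairs of hearts with the same number the correlation ran from -0.24 to 0.23, over 0.1 in 4, of which 3 were the pairs of replicate 3 (0.12 to 0.15). With the replicate block 17, 29 and 12 replication genes and 24, 49 and 50 mitotic genes were higher.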
